A study of Mus musculus with 8 samples.

Results

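Cholesterol synthesis was examined through 8 of its enzyme genes, Hmgcs1, Mvk, Idi1, Fdps, Fdft1, Sqle, Lss and Cyp51, in cultured muscle stem cells (MuSCs) of old mice. The genes were given by name, as enzymes of the route. Of the 8 genes, 7 had enough reads to be tested, among 12060 tested genes and 19244 genes with at least 1 count. No difference between treated and vehicle cells was called for them: 0 of 7 passed an adjusted p of 0.05 in edgeR (quasi-likelihood fit, adjusted after Benjamini-Hochberg over all tested genes), against 1.28% of all tested genes. The count was also 0 of 7 with the pool of mice as a block, against 1.29% of all tested genes, and 0 of 7 by DESeq2. At an unadjusted p under 0.05 the count was also 0 of 7, against 9.28% of all tested genes.

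MuSCs are the resident stem cells of skeletal muscle. They were sorted from hindlimb muscles of old male C57BL/6JRj mice as CD31-, CD11b-, CD45- and Sca1-negative cells that were positive for CD34 and integrin α7. Cells of 8 mice were combined into 4 pools of 2 mice, and cells of each pool were cultured for 72 hours in growth medium, once with vehicle (1% DMSO) and once with NAM/PN, nicotinamide (a form of vitamin B3) with pyridoxine (a form of vitamin B6), at a final 1 mM. The labels give this concentration for the combination, without a value for either vitamin, and none of the libraries used here had a vitamin alone. The labels give the mice only as old, without an age in months. Whether DMSO was also in the NAM/PN cultures is not stated. Each library was thus a pool and not a single animal, and the pool number links 1 vehicle library with 1 NAM/PN library from the same mice, which gives n = 4 per group.

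Cells make cholesterol from acetyl-CoA. HMG-CoA synthase leads towards mevalonate, a short series of kinases and a decarboxylase turns mevalonate into isoprenoid units, and squalene synthase commits these to squalene, which is epoxidised, closed into lanosterol and trimmed to cholesterol. Most genes of the route are known targets of SREBP-2, a transcription factor that is held in the endoplasmic reticulum by INSIG and SCAP when sterols are plentiful and released to the nucleus when they fall. Dividing cells need sterols for new membrane, and the isoprenoids made on the way also serve ubiquinone, dolichol and the lipid anchors of small GTPases.

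SREBP-2 acts through short sterol regulatory elements that lie beside boxes for the factors NF-Y and Sp1. The 300-base windows around RefSeq start sites (build GRCm38.p6, 250 bases before and 50 after the start) were searched on both strands for TCACNCCAC (a sterol regulatory element), CCAAT (an NF-Y box), GGGCGG (an Sp1 box) and CACGTG (an E-box). None of these motifs contains another. Windows were found for 5 of the 8 genes, Hmgcs1, Mvk, Idi1, Lss and Cyp51. The string TCACNCCAC was found in 1 of these 5, Hmgcs1, and in 1.24% of all 32851 windows. Other forms of the sterol element were not searched for, so windows without this string may still hold one. A CCAAT box was found in 5 of 5 and in 37.4% of all windows, GGGCGG in 5 of 5 and in 35.7% of all windows, and CACGTG in 0 of 5 and in 7.15% of all windows. The 250 bases before the start are shown for the 2 genes with the highest levels, Hmgcs1 with TCACNCCAC and Cyp51 without this string in its window. Capitals mark TCACNCCAC and each CCAAT box, which reads ATTGG where it lies on the other strand. A match is a string of letters and not a measured binding site.
Hmgcs1 (chr13:119690101-119690350, + strand): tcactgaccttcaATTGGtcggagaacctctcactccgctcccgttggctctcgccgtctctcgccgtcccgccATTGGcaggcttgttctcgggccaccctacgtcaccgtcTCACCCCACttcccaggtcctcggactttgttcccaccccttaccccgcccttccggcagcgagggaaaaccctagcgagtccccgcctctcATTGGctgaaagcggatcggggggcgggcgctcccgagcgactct
Cyp51 (chr5:4104698-4104947, - strand): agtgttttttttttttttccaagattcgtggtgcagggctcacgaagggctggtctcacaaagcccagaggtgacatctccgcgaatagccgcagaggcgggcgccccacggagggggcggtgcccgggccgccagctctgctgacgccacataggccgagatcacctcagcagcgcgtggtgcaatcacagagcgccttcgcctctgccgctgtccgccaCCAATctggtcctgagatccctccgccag
In Hmgcs1 the element TCACCCCAC began 137 bases before the start site. In Cyp51 the CCAAT box began 29 bases before the start site.

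QuantSeq reads come from the 3′ ends of transcripts, 1 tag for each molecule whatever its length. Levels are therefore CPM, counts scaled to the TMM-normalised library total, and are not divided by transcript length. Libraries held between 6472484 and 10163101 counts, with no detected difference between groups (two-sided exact permutation test, p = 0.486, n = 4 per group). The 8 genes together took between 1583 and 2943 counts of a library. A count of 0 in a library allows up to 3 counts, or between 0.295 and 0.464 CPM of its total. The mitochondrial share of counts was 2.56% to 7.54% (exact permutation p = 0.229, n = 4 per group). Vehicle 3 stood apart in the share taken by the most counted rRNA gene, 18.7% against 5.22% to 11.6% in the other libraries, and no gene of the 8 passed the threshold with or without that library. NAM/PN 4 had the most counts, the fewest genes detected (12483), the lowest mitochondrial share (2.56%) and the lowest share of that rRNA gene (5.22%). No gene of the 8 passed the threshold without NAM/PN 4 either.

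The cells carried the markers of their label. All 8 satellite cell and myoblast markers on the list were tested and 0 of 8 passed the threshold, with summed levels of 2357 to 2562 CPM in vehicle libraries and 1898 to 2305 CPM in NAM/PN libraries, which did not overlap. Pax7, the transcription factor that marks MuSCs, averaged 196 ± 36.2 CPM (SD, n = 4) in vehicle cells and 173 ± 50.3 CPM in NAM/PN cells, and Myod1, which marks committed myoblasts, 1366 ± 175 and 1201 ± 134 CPM. Genes of myogenic differentiation moved with the treatment: 16 of 20 fell by the adjusted threshold, against 0.995% of all tested genes called lower. Their median log2 fold change was -2.37 and their summed level was 2447 to 4706 CPM in vehicle libraries and 591 to 1410 CPM in NAM/PN libraries. Myog, an early gene of that programme, fell from 929 ± 390 to 199 ± 74.3 CPM (log2 fold change -2.22). The part of this shift in the levels of the cholesterol genes was not tested. In pools of whole cells, fewer cells of a kind and less RNA per cell cannot be told apart.

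Listed markers of other cells ranged from absent to levels above that of Pax7. The levels above Pax7 were those of Col1a1 and Acta2. None of 6 endothelial genes reached the level of testing, with Emcn, Cldn5 and Tie1 at 0 counts and summed levels of 0 to 7.25 CPM. Of 6 immune genes 5 were at 0 counts (Ptprc, Adgre1, Itgam, Csf1r and Lyz2), with summed levels of 0.979 to 7.58 CPM. Of 7 fibro-adipogenic genes 3 were at 0 counts (Pdgfra, Lum and Dpt) and 2 were tested, and their sum was 153 to 207 CPM with vehicle and 57.0 to 1123 CPM with NAM/PN, the high values coming from Col1a1 in NAM/PN 1 and 2 (486 and 1032 CPM, against at most 41.3 CPM in the other libraries). Col3a1, a fibrillar collagen, fell from 155 ± 7.86 to 69.2 ± 12.7 CPM (log2 fold change -1.17, edgeR adjusted p = 0.00255). Of 6 mural genes 3 were tested, and the list summed to 285 to 608 CPM with vehicle and 95.9 to 156 CPM with NAM/PN. Rgs5, Pdgfrb and Kcnj8 were not tested and had 32, 27 and 18 counts in total over the 8 libraries. With vehicle, Acta2 averaged 368 CPM, Notch3 37.6 CPM and Cspg4 27.1 CPM. Acta2, smooth muscle actin, fell from 368 ± 125 to 70.5 ± 35.1 CPM (log2 fold change -2.38, edgeR adjusted p = 0.000147). Col3a1 and Acta2, named after their values were seen, were lower in 4 of 4 pools without overlap of the groups. Of all tested genes 19.2% went 1 way in all 4 pools, and in 7.21% the groups did not overlap. The part of Col3a1 and Acta2 in the levels of the cholesterol genes was not tested. Of 4 Schwann genes 1 was tested, with sums of 1.61 to 12.4 CPM and 2.83 to 12.6 CPM.

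Hmgcs1 (ENSMUSG00000093930, chr13:119690379-119708260, + strand, GRCm38) encodes the cytosolic HMG-CoA synthase, an early step of the pathway. It had the highest mean of the 8 genes. Vehicle libraries 1 to 4 held 94.6, 79.4, 63.4 and 104 CPM and NAM/PN libraries 1 to 4 held 76.8, 98.0, 54.5 and 61.7 CPM. The ranges overlapped, and the NAM/PN value was the lower of the pair in pools 1, 3 and 4 and the higher in pool 2. The means (± SD, n = 4) were 85.4 ± 17.9 CPM in vehicle and 72.8 ± 19.2 CPM in NAM/PN libraries. The fold change was 0.851 (95% interval 0.608 to 1.19, log2 -0.23 ± 0.23 SE), with an edgeR adjusted p of 0.888.

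Mvk (ENSMUSG00000041939, chr5:114444269-114460591, + strand) encodes mevalonate kinase, which adds the first phosphate to mevalonate. Vehicle libraries held 14.0, 18.9, 11.0 and 13.7 CPM and NAM/PN libraries 7.63, 22.3, 5.94 and 31.0 CPM in the order of the pools. The treated libraries spread on both sides of the vehicle libraries, with pools 1 and 3 lower and pools 2 and 4 higher, and the SD was 3.27 CPM around a mean of 14.4 with vehicle and 12.0 CPM around 16.7 with NAM/PN. The log2 fold change was 0.22 (95% interval -0.86 to 1.30, edgeR adjusted p = 0.970). Its sign rested on NAM/PN 4, without which it was -0.27, and with the pool as a block it was -0.08.

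Idi1 (ENSMUSG00000058258, chr13:8885501-8892451, + strand) encodes the isopentenyl diphosphate isomerase, which interconverts the isoprenoid units. It had 2 counts in all 8 libraries, 1 in vehicle 4 and 1 in NAM/PN 2, below the floor of 3 counts in each, so it was not tested and no fold change is given. The last 400 bases of its transcript had no copy of at least 95% identity over at least 100 bases among the annotated transcripts, and no other annotated exon lay over them. The neighbouring enzymes of the route were counted at many times this level in every library, apart from Fdft1 in NAM/PN 1.

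Fdps (ENSMUSG00000059743, chr3:89093588-89101959, - strand) encodes farnesyl diphosphate synthase, at the fork between sterols and the other isoprenoids. Vehicle libraries held 12.9, 10.9, 16.8 and 13.9 CPM and NAM/PN libraries 14.0, 9.89, 17.2 and 22.2 CPM. The ranges overlapped, with the highest value in NAM/PN 4 and the lowest in NAM/PN 2. The means were 13.6 ± 2.45 CPM for vehicle and 15.8 ± 5.21 CPM for NAM/PN (log2 fold change 0.22, 95% interval -0.71 to 1.14, edgeR adjusted p = 0.967). The fold change rested on NAM/PN 4, without which it was 0.0067. Within the last 400 bases of its transcript, stretches of 123 to 345 bases matched 5 other annotated genes at 95.1% to 100% identity. Of these, 4 are processed pseudogenes, and the other, Gm43738, overlaps Fdps itself on the same strand. Gm43738 shares 206 of the last 400 bases and had 0 counts. The 5 genes together had 73 counts over the 8 libraries against 997 for Fdps. Reads may be split between the copies or left out where the genes overlap, so the level is uncertain.

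Fdft1 (ENSMUSG00000021273, chr14:63145150-63179578, - strand) encodes squalene synthase, the step that commits isoprenoids to sterols. It had the largest fold change of the 7 tested genes and the widest interval. Vehicle libraries held 77, 261, 59 and 79 counts (9.12, 32.4, 7.29 and 8.60 CPM) and NAM/PN libraries 0, 64, 67 and 76 counts (0, 8.92, 10.2 and 7.10 CPM). A high vehicle 2 and an absent NAM/PN 1 stood apart, and the other 6 libraries lay between 7.10 and 10.2 CPM in both groups. The log2 fold change was -1.13 (95% interval -2.96 to 0.70, edgeR adjusted p = 0.816), and it was -0.35 without vehicle 2. The whole of the last 400 bases of the Fdft1 transcript lies in exons of Ctsb, a lysosomal protease gene on the opposite strand with 900 to 2638 counts a library, and the strand setting of the counting is not given in the sources used here, so reads of the pair may have been left out or moved between them.

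Sqle (ENSMUSG00000022351, chr15:59315077-59331192, + strand) encodes squalene epoxidase, a rate-limiting oxygen-dependent step. Vehicle libraries held 32.8, 33.3, 41.4 and 39.4 CPM and NAM/PN libraries 39.5, 33.7, 68.2 and 57.4 CPM. It was the single member with the NAM/PN library above its vehicle partner in 4 of 4 pools, a pattern of 1 direction that 19.2% of all tested genes also had, while the ranges of the groups overlapped. Within pools 1 to 4 the log2 difference was 0.27, 0.02, 0.72 and 0.54. Means were 36.7 ± 4.33 CPM for vehicle and 49.7 ± 15.9 CPM for NAM/PN, a fold change of 1.35 (95% interval 0.907 to 2.02) that did not pass the threshold (edgeR adjusted p = 0.746). This was the lowest adjusted p among the 8 genes.

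Lss (ENSMUSG00000033105, chr10:76531588-76557138, + strand) encodes lanosterol synthase, which closes the sterol rings. Vehicle libraries held 22.4, 22.1, 6.18 and 8.38 CPM and NAM/PN libraries 18.1, 13.1, 19.9 and 22.1 CPM. Vehicle libraries fell into a high pair and a low pair, and the treated libraries lay within the span of the vehicle libraries. Within pools 1 to 4 the log2 difference was -0.30, -0.74, 1.65 and 1.38, so that the pools differed in direction. The log2 fold change was 0.31 (95% interval -0.68 to 1.31, edgeR adjusted p = 0.948). Single libraries moved this value, to 0.054 without vehicle 3, 0.11 without vehicle 4 and 0.58 without vehicle 1, and it was 0.014 without pool 3 and 0.013 without pool 4. An annotated antisense gene lies over 105 of the last 400 bases of its transcript and had 0 counts in the 8 libraries.

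Cyp51 (ENSMUSG00000001467, chr5:4081145-4104746, - strand) encodes lanosterol demethylase, the first trimming step after the rings are closed. Vehicle libraries held 59.6, 77.7, 71.9 and 80.9 CPM and NAM/PN libraries 81.4, 67.3, 65.0 and 73.2 CPM. The groups lay over each other, at 72.5 ± 9.39 and 71.7 ± 7.30 CPM. The fold change was 0.990 with the narrowest interval of the 7 tested genes, 0.735 to 1.33 (edgeR adjusted p = 0.995), and its sign changed in 7 of 12 fits that left out a library or a pool. The last 166 bases of its transcript lie in an exon of Akap9, a scaffold protein gene on the opposite strand with 709 to 1728 counts a library.

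**Figure D1:**
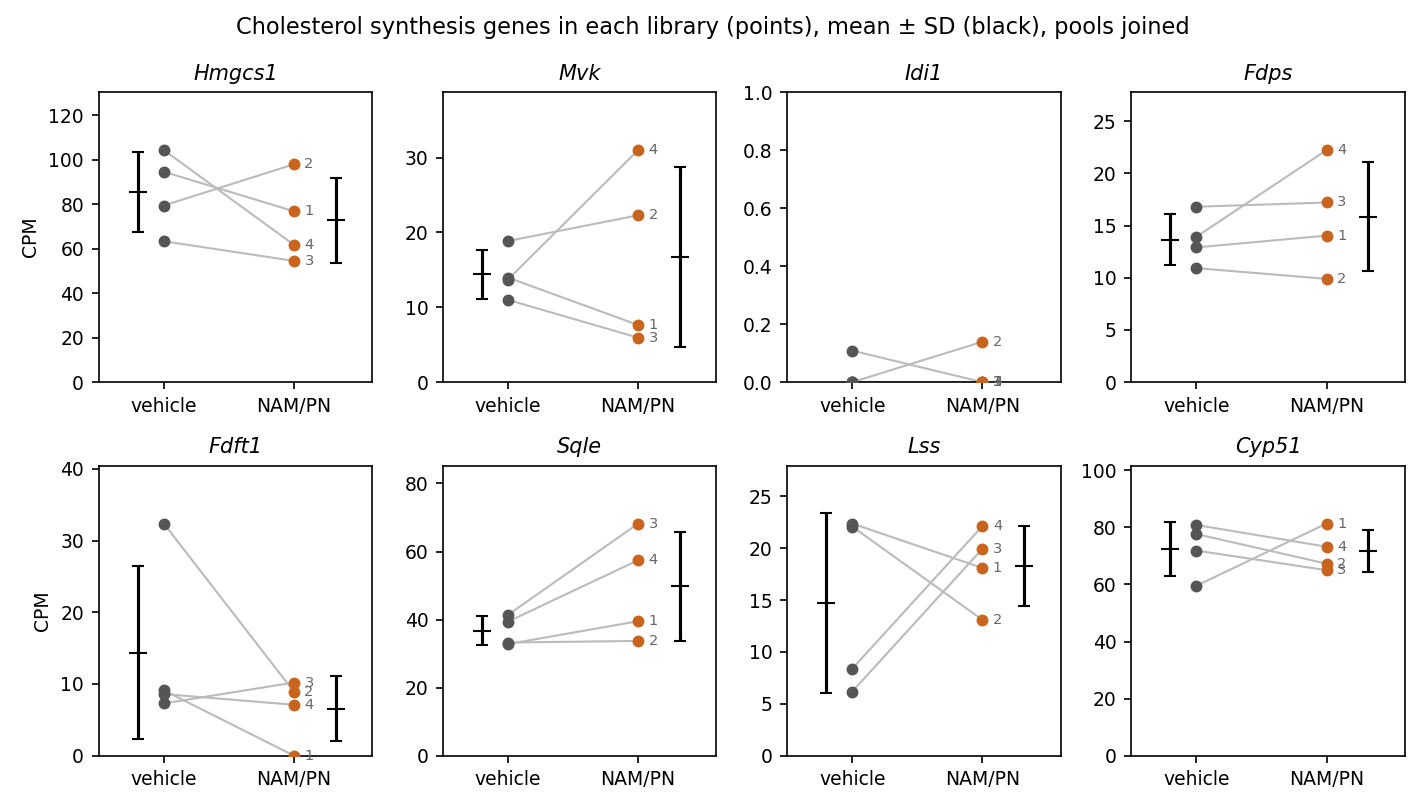
Levels of the 8 cholesterol synthesis genes in CPM (linear axes from 0) in the 4 vehicle and 4 NAM/PN libraries, with points for libraries, grey lines joining the libraries of a pool (numbered 1 to 4) and black bars for mean ± SD except for Idi1. The groups overlap in each of the 8 panels, Sqle is higher with NAM/PN in 4 of 4 pools, and Fdft1 has a high vehicle 2 (32.4 CPM) and no count in NAM/PN 1.

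In the order of their mean level with vehicle the genes were Hmgcs1, Cyp51, Sqle, Lss, Mvk, Fdft1 and Fdps, followed by Idi1 under the floor, on the CPM scale of 3′ tags. Among the neighbours in this order whose libraries did not overlap with vehicle were Cyp51 and Sqle (59.6 to 80.9 against 32.8 to 41.4 CPM) and Sqle and Lss (32.8 to 41.4 against 6.18 to 22.4 CPM). With NAM/PN, Sqle and Lss still did not overlap, and Cyp51 (65.0 to 81.4 CPM) overlapped Sqle (33.7 to 68.2 CPM). Each neighbour pair among Lss, Mvk, Fdft1 and Fdps overlapped in both groups, while with NAM/PN the libraries of Lss (13.1 to 22.1 CPM) lay above those of Fdft1 (0 to 10.2 CPM).

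Seen together, 4 of the 7 tested genes had a positive and 3 a negative log2 fold change, with a median of 0.22. The sign of this median depended on the fit: it was -0.012 with the pool as a block, where Mvk turned negative, and -0.045 by voom. Over all tested genes 49.8% were positive, the median was -0.0022, and the 25th to the 75th percentile ran from -0.35 to 0.29. The groups overlapped in 7 of 7 genes, while they were apart in 7.21% of all tested genes. The biological coefficient of variation had a median of 0.447 over the 7 genes and 0.391 over all tested genes. The 7 genes did not share a pattern over the libraries either: of their 21 pairs 9 had a positive and 12 a negative Pearson's r of log2 CPM over the 8 libraries, from -0.81 (Hmgcs1 and Sqle) to 0.81 (Fdps and Sqle), as a description over libraries that share pools and depth.

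**Figure D2:**
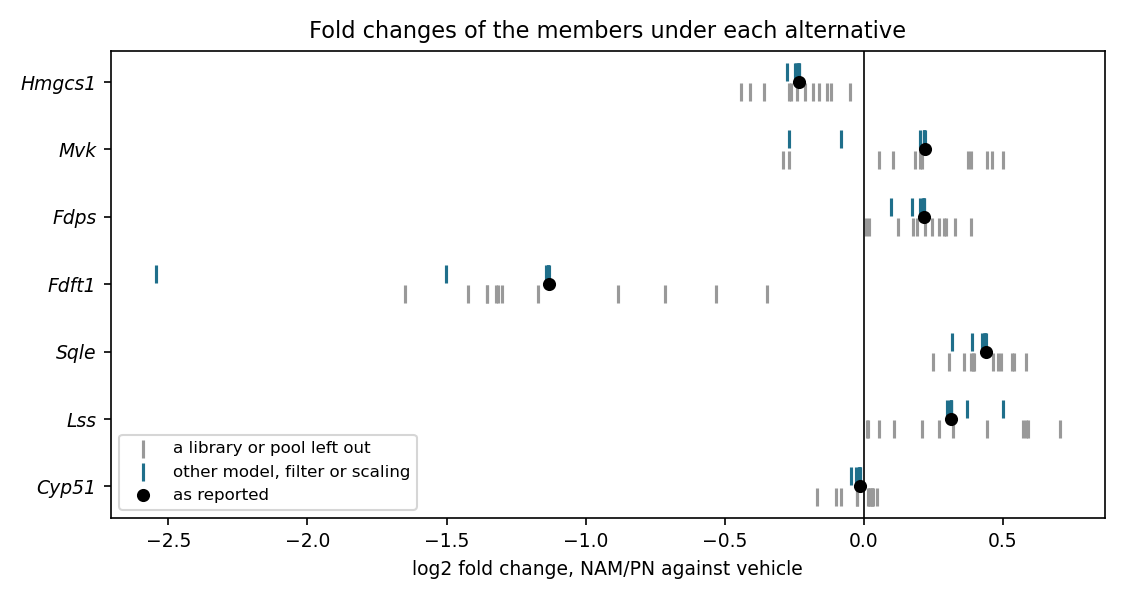
Log2 fold change of NAM/PN against vehicle (x axis) of the 7 tested genes, with black points for the values given in the text, blue ticks for another model, filter or scaling and grey ticks for fits without a library or a pool. Ticks of Mvk and Cyp51 lie on both sides of 0, and Fdft1 spreads from -2.54 to -0.35.

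Among the 9110 genes outside the lists whose log2 CPM averaged 3 or more, the 5 most like the mean of the 7 genes over the 8 libraries were Cdk5, a kinase of the cyclin-dependent family (r = 0.97), Marveld1 (0.95), Hars2, a mitochondrial histidyl-tRNA synthetase (0.94), Btrc, a ubiquitin ligase subunit (0.93), and Fam20c, a secretory pathway kinase (0.93). These are the highest of many comparisons over few libraries and carry no test. The mean they follow was lowest in NAM/PN 1 (-0.75 as centred log2 CPM), the library with no count of Fdft1.

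The remaining enzymes of the route were read from a list of 13 genes, of which 13 were tested, 9 were higher, 4 were lower and 0 passed the threshold (median log2 fold change 0.25). Acat2, a cytosolic thiolase that makes acetoacetyl-CoA, named after its values were seen, held 29.9 to 38.7 CPM with vehicle and 31.3 to 99.7 CPM with NAM/PN, higher in 4 of 4 pools with overlapping ranges (log2 fold change 0.80, 95% interval 0.15 to 1.45, edgeR adjusted p = 0.352). Its value of 99.7 CPM was in NAM/PN 4, and the other NAM/PN libraries reached at most 54.5 CPM. Tm7sf2, a sterol reductase that shares its step with Lbr, had the largest fitted fold change on the list, 2.48 on the log2 scale, from few reads. Its counts were 0, 0, 22 and 0 with vehicle and 19, 11, 15 and 98 with NAM/PN (edgeR adjusted p = 0.804), and the fitted value was 8.00 without vehicle 3, 1.58 without NAM/PN 4 and 5.58 with the pool as a block. Over the 20 tested enzymes of both lists, 13 were higher and 7 lower, and 0 passed the threshold, while DESeq2 and edgeR without the filter on low counts each called 1 enzyme of the list of 13.

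**Figure D3:**
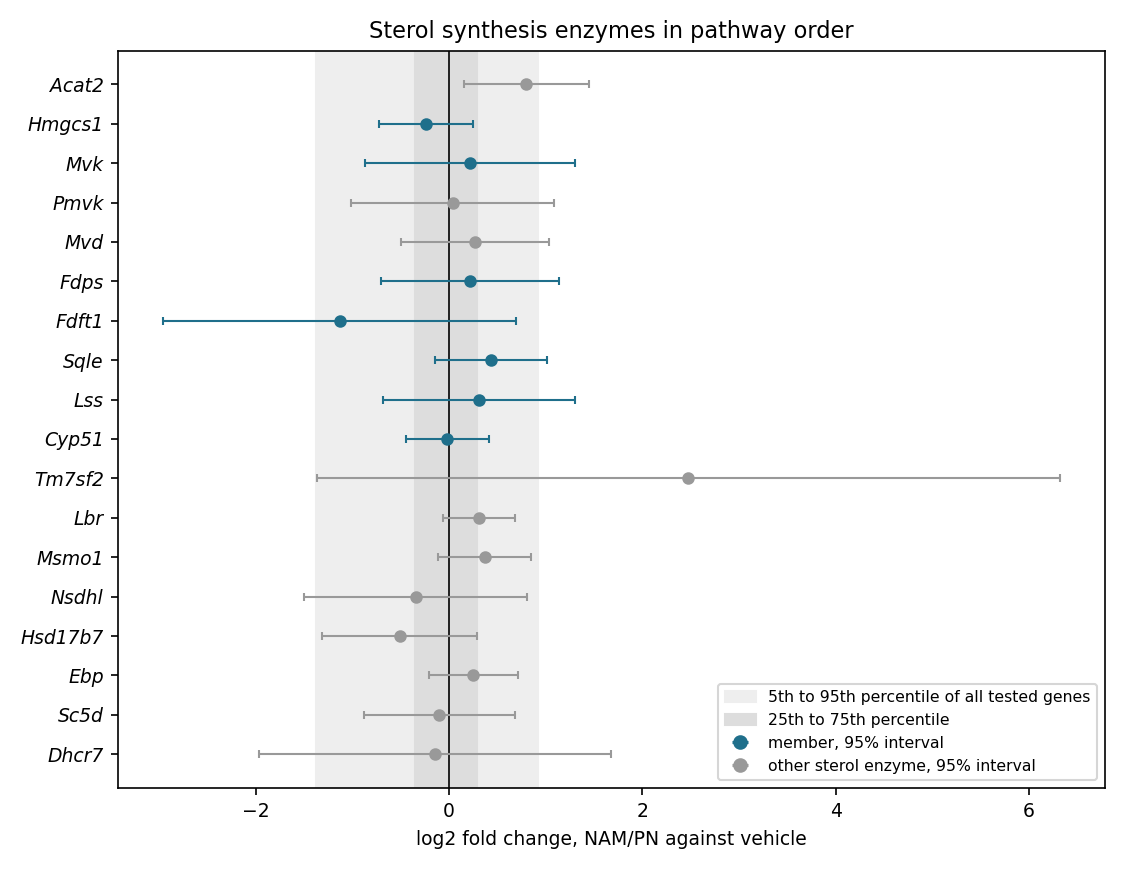
Log2 fold change of NAM/PN against vehicle (x axis) for 18 of the 20 tested sterol synthesis enzymes in pathway order from top to bottom, with points for estimates, bars for 95% intervals and grey bands for the spread of all 12060 tested genes. The intervals of the 7 blue genes of interest span 0, and that of Acat2 lies above 0, with an edgeR adjusted p of 0.352.

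Control of the route was read from 10 genes that hold, cleave or degrade the SREBP machinery. Of these, 4 were higher, 6 were lower and 0 passed the threshold (median log2 fold change -0.079, and 0.12 by voom). Srebf2, which encodes SREBP-2, averaged 169 ± 15.6 CPM in vehicle and 149 ± 40.4 CPM in NAM/PN libraries (log2 fold change -0.19, edgeR adjusted p = 0.894). Srebf1, which encodes the related factor of fatty acid synthesis, was at 21.5 ± 15.9 and 19.2 ± 9.52 CPM (log2 -0.17), with 45.2 CPM in vehicle 2 and a log2 fold change of 0.49 without it. Insig1, itself a target of SREBP and a brake on it, was at 7.92 ± 4.79 and 6.80 ± 2.71 CPM (log2 -0.22), a sign that was positive without vehicle 1 (0.08).

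Insig2, the second retention protein, and Rnf145, a sterol-responsive ubiquitin ligase of the endoplasmic reticulum, had the largest changes on that list. Insig2 held 41.0, 21.8, 36.1 and 16.9 CPM with vehicle and 19.4, 8.64, 12.9 and 14.7 CPM with NAM/PN, lower in 4 of 4 pools with overlapping ranges (log2 fold change -1.05, 95% interval -1.89 to -0.21, edgeR adjusted p = 0.337). Rnf145 held 64.9 to 77.2 CPM with vehicle and 81.2 to 129 CPM with NAM/PN, without overlap (log2 fold change 0.56, 95% interval 0.13 to 0.98, edgeR adjusted p = 0.302). The groups did not overlap in 2 of the 10 genes on the list, against 7.21% of all tested genes.

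Genes of cholesterol uptake and transport were tested in 13 of 13 cases, with 10 higher, 3 lower and 0 past the threshold (median log2 fold change 0.25). Mylip, a sterol-regulated ubiquitin ligase, had a large fitted change from low counts. It held 178, 40, 82 and 116 counts with vehicle and 41, 18, 53 and 0 counts with NAM/PN, lower in 4 of 4 pools with overlapping ranges (log2 -1.65, 95% interval -3.67 to 0.38, edgeR adjusted p = 0.701).

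Genes of sterol efflux and esterification were scarce: 4 of 9 were tested, 3 were higher, 1 was lower and 0 passed the threshold (median log2 fold change 0.18). The largest fitted changes were those of Apoe, a lipid carrier, from 3.87 ± 4.43 to 6.18 ± 4.71 CPM (log2 0.67, edgeR adjusted p = 0.964), and Nceh1, a cholesteryl ester hydrolase, from 54.9 ± 10.9 to 41.3 ± 9.75 CPM (log2 -0.41, edgeR adjusted p = 0.747). The value of Apoe was 2.37 with the pool as a block and 0.0040 without pool 3. Of the genes not tested, Nr1h3, which encodes the oxysterol receptor LXRα, is named after its values were seen. It held 52, 31, 8 and 42 counts with vehicle and 0 counts in all 4 NAM/PN libraries, each of which allows up to 3 counts. DESeq2 called it (adjusted p = 0.00148) and edgeR without the filter did not. Its targets Abca1 and Abcg1, named for the same reason, had at most 13 counts in a library.

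The branches beside sterols also held no called gene. Of 15 genes that use isoprenoids outside sterols, for ubiquinone, dolichol and protein prenylation, 15 were tested, 12 were higher, 3 were lower and 0 passed the threshold (median log2 fold change 0.15). The largest changes were those of Pdss2, a subunit of the enzyme that makes the ubiquinone side chain (18.9 ± 4.46 to 26.7 ± 6.92 CPM, log2 0.49, edgeR adjusted p = 0.791), and Rce1, a protease of prenylated proteins (29.6 ± 22.1 to 39.9 ± 8.92 CPM, log2 0.43, edgeR adjusted p = 0.898), whose value was 0.080 without vehicle 3 and 0.78 with the pool as a block.

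Fatty acid synthesis, the other lipid route under SREBP, had 13 of 15 genes tested, 10 higher, 3 lower and 0 past the threshold (median log2 fold change 0.25). Elovl6, an elongase, held 15.9 to 39.9 CPM with vehicle and 40.7 to 54.2 CPM with NAM/PN (log2 0.86, 95% interval 0.22 to 1.50, edgeR adjusted p = 0.276), and Fads1, a desaturase, 32.1 to 54.8 and 52.4 to 106 CPM (log2 0.85, edgeR adjusted p = 0.159). Fasn, the fatty acid synthase, named after its values were seen, held 150, 113, 150 and 131 CPM in vehicle libraries and 174, 177, 219 and 318 CPM in NAM/PN libraries. Its groups did not overlap, as in 2 of the 13 tested genes on the list and 7.21% of all tested genes. The log2 fold change of Fasn was 0.71 (95% interval 0.28 to 1.14, edgeR adjusted p = 0.125), with adjusted p of 0.0460 by DESeq2 and 0.0264 by edgeR without the filter.

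Over the 6 lists around the 8 genes, 68 of 75 genes were tested, 48 were higher, 20 were lower and 0 passed the threshold, with a median log2 fold change of 0.21. At an unadjusted edgeR p under 0.05 there were 7 of 68 genes, a share near the 9.28% of all tested genes. The share higher was 70.6%, against 49.8% of all tested genes, and no test was made of this difference.

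**Figure D4:**
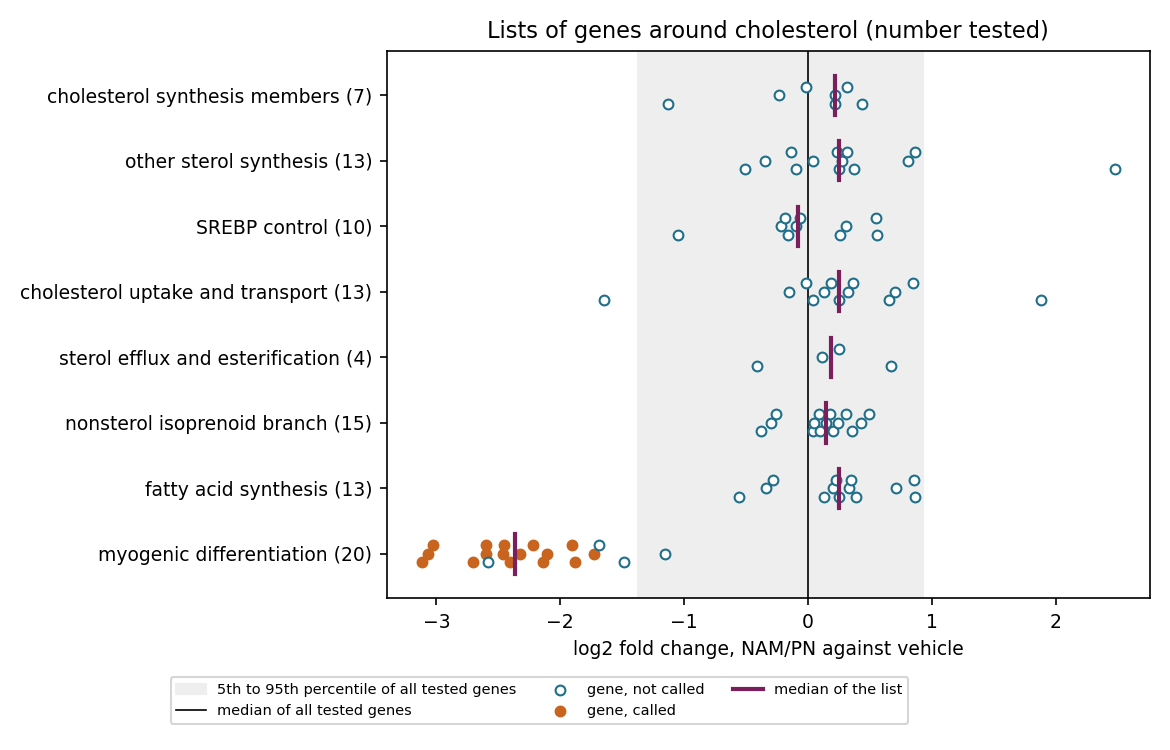
Log2 fold change of NAM/PN against vehicle (x axis) of each tested gene by list (y axis, number tested in brackets), with open points for genes not called, filled points for genes called at an adjusted p under 0.05, a bar for each list's median and a grey band for the 5th to 95th percentile of all tested genes. Of the 8 lists drawn, myogenic differentiation has 16 of 20 genes called lower, and the 7 lists around cholesterol have 0 called. The lists of other cell types are not drawn.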

How the data were processed

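The deposited values are whole-number read counts for each gene, which the authors left unnormalised after alignment to GRCm38 with RNASTAR and counting with htseq-count (2.16.2 in the submitters' processing notes). Annotation release, strand setting and handling of reads with several matches are not given in the sources used here. Symbols and positions were read from GENCODE M21, which named 55141 of 55487 identifiers, and copies were sought with BLAST 2.17.0. Libraries were grouped by their labelled treatment.

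Genes were filtered with filterByExpr (minimum count 10, minimum total 15), TMM-normalised and tested by the quasi-likelihood test of edgeR 4.0.16 in R 4.3.3 without a block. P values were adjusted after Benjamini-Hochberg over the 12060 genes, and a gene was called under 0.05. CPM are counts scaled to the effective library total, and log2 CPM used a prior count of 2. Intervals are at 95% from the fitted SE. Floors for counts cover counting error only, while the intervals of fold changes also include the fitted variation between libraries.

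Pool numbers pair libraries from the same mice. Deviations of paired libraries from their group means correlated between -0.033 and 0.031 over genes, and the pool was used as a block in an alternative fit with DESeq2 1.42.0, limma 3.58.1 voom, other filters and scalings, and left-out libraries beside it. Scripts were tested on simulated data.

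The 8 genes and the lists were chosen with earlier results of these data known. The named genes are the 8 genes, Insig1, Srebf1 and Srebf2, the called genes and the 2 largest changes of each list, the 5 genes most alike in pattern, and Pax7, Myod1 and Myog. Some listed genes count in their lists but are not reported here singly. Figures were drawn with matplotlib 3.10.9.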

Additional observations from a re-analysis of the deposited data

Results flagged for a closer look

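Within groups of 4 libraries, a library was singled out where its gap to the nearest other, divided by the group's range, exceeded Dixon's critical value at 95%. Of 54 groups looked at, 6 met this, where chance would give about 2.7.

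Fdft1 was at 32.4 CPM in vehicle 2 and at 7.29 to 9.12 CPM in the other vehicle libraries. Srebf1 was at 45.2 CPM in the same library and at 10.4 to 15.4 CPM in the others. Tm7sf2 was at 2.72 CPM in vehicle 3 and at 0 in the other vehicle libraries, and at 9.15 CPM in NAM/PN 4 against 1.53 to 2.34 CPM in the other NAM/PN libraries. Sc5d, a late desaturase of the sterol route, was at 14.0 CPM in vehicle 4 and at 23.6 to 25.4 CPM in the others. The most counted rRNA gene took 18.7% of vehicle 3 and 9.09% to 9.59% of the other vehicle libraries.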

How the results depend on the processing

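The count of cholesterol synthesis genes called stayed at 0 under all 19 alternatives run, with a lowest adjusted p of 0.383 (Fdft1, voom). With the pool as a replicate block, 156 genes were called and the log2 fold change of Mvk was -0.081, and the block changed no call of a gene named here. By voom the log2 fold change was -0.27 for Mvk, 0.45 for Insig1 and 0.097 for Srebf1.

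Without a library in turn, Mvk ranged from -0.27 to 0.50, Cyp51 from -0.10 to 0.033, Insig1 from -0.54 to 0.083, Srebf1 from -0.55 to 0.49 and Pax7 from -0.26 to 0.016. Without a pool in turn, Mvk ranged from -0.29 to 0.44, Cyp51 from -0.17 to 0.049 (0.022 without pool 3, 0.031 without pool 4), Insig1 from -0.42 to 0.15 and Srebf1 from -0.31 to 0.11. The median of the SREBP list ranged from -0.17 to 0.22 without a library, the highest without vehicle 2, and the median of the 7 genes was -0.026 without NAM/PN 4, -0.012 with the block and -0.045 by voom. Genes called over the whole table ranged from 80 (without vehicle 2) to 177 without a library (14 to 43 higher, 62 to 134 lower). They were 65 without pool 1 (7 higher, 58 lower), 42 without pool 2 (5 higher, 37 lower), 112 without pool 3 (30 higher, 82 lower) and 94 without pool 4 (17 higher, 77 lower). The cause of these shifts was not tested.

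DESeq2 called 388 genes (124 higher, 264 lower), edgeR without the filter 366 (135 higher, 231 lower), voom 232 (66 higher) and an adjusted p of 0.10 gave 244 (65 higher). DESeq2 called 1 other sterol enzyme, 1 gene of efflux (Nr1h3) and 1 of fatty acid synthesis (Fasn), and edgeR without the filter 1 other sterol enzyme and 1 of fatty acid synthesis.

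Over the fits without a library or a pool, Hmgcs1 ranged from -0.44 to -0.051 (without pool 4), Sqle from 0.25 (without NAM/PN 3) to 0.58, Lss from 0.013 to 0.70 and Fdps from 0.0067 to 0.39.

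With 4 libraries a group, the 95% intervals of the log2 fold change run from -2.96 to 0.70 for Fdft1, -0.86 to 1.30 for Mvk, -0.71 to 1.14 for Fdps, -0.68 to 1.31 for Lss, -0.14 to 1.02 for Sqle, -0.72 to 0.25 for Hmgcs1 and -0.44 to 0.41 for Cyp51.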
